A study of Mus musculus with 16 samples.

Results

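Among endothelial cells (EC) sorted from mouse lung, 644 of 9036 carried high levels of Atf3, a stress-induced transcription factor, together with Egr1 or Csrnp1, transcription factors of the early response. The cells were chosen by their measured UMIs of these 3 genes. A cell was taken when it held at least 3 unique molecular identifiers (UMIs, one per captured transcript) of Atf3 per 10000 UMIs of the cell and at least 1 UMI of Egr1 or Csrnp1. The other 8392 cells were the comparison. Cells came from lungs of female C57BL/6N mice by fluorescence-activated sorting, and were counted with the 10x Genomics Chromium 3′ chemistry. All mice were of that strain, and the 4 conditions were d0 (wild-type mice), d15 (mice with a primary tumour of Lewis lung carcinoma, a transplantable mouse tumour line, implanted under the skin), d22 (after the tumour had been resected) and d36 (mice with metastases). The labels list 4 libraries for each day, but a cell's name gives only its day, so each day was 1 pooled sample. The d0 sample had 241 Atf3-high cells of 2671, the d15 sample 53 of 1507, the d22 sample 284 of 3230 and the d36 sample 66 of 1628.

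Early-response genes are transcribed within minutes of a stimulus without new protein synthesis. Many of their products are transcription factors, such as the FOS and JUN proteins that pair as AP-1, or feedback proteins that end the signal, and their transcripts are short-lived. ATF3 belongs to the ATF/CREB family of leucine zipper proteins and binds cyclic AMP response elements and AP-1 sites as a dimer. In endothelium these genes respond to cytokines, blood flow and injury, and they are also known to be induced by enzymatic digestion of tissue.

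The UMIs were unevenly spread over days. Atf3-high cells of d0 and d22 held 2572763 and 2801963 UMIs in all, against 374443 at d15 and 398580 at d36, so the levels at d15 and d36 are the least precise. The median Atf3-high cell had 8644 UMIs and 1440 genes, against 6158.5 UMIs and 1132 genes in the other cells. It was the deeper group at each day, with medians of 9262 against 7403 UMIs (d0), 7027 against 4017.5 (d15), 9026 against 7521 (d22) and 6023 against 3319.5 (d36). Barcodes shared between days numbered 36, and 2 Atf3-high cells carried one.

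The 3 genes of the rule are given as a description. Summed over the Atf3-high cells of each day, Atf3 stood at 769, 816, 913 and 989 CPM (the sum's UMIs of the gene, scaled to 1000000 UMIs in all) at d0, d15, d22 and d36, against 31.3, 34.3, 33.7 and 50.8 in the other cells. Egr1 stood at 827, 824, 908 and 909 CPM against 269, 226, 263 and 235, and Csrnp1 at 186, 261, 212 and 360.5 CPM against 40.5, 56.0, 37.3 and 79.6. Of the 644 cells, 375 met the rule through Egr1 alone, 63 through Csrnp1 alone and 206 through both. The median rate of Atf3 was 6.74 UMIs per 10000 and the highest was 86.0. Only 9 cells rested on a single UMI of Atf3.

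The cells were endothelial by their markers. Of 26 EC identity genes measured, none differed from the other cells at an adjusted p under 0.05, but 21 of the 26 had negative differences (median log2 difference -0.15). Over all 10849 genes tested, 4186 had positive differences and the median log2 difference was -0.09. The summed level of the 26 identity genes was lower in Atf3-high cells at each day, at 21305, 22759, 22176 and 23037 CPM against 22511, 26097, 24236 and 23840. Pecam1, an adhesion molecule of EC junctions, stood at 1122, 1258, 962 and 1104 CPM in the Atf3-high cells and 1316, 1276, 1143 and 1179 CPM in the other cells over the 4 days. Cdh5, which encodes VE-cadherin, stood at 948, 903, 772 and 883 CPM in the Atf3-high cells and 1104, 1108, 951 and 1019 CPM in the other cells, lower at each day without overlap, by a log2 difference of -0.27 ± 0.09 (SE) that was not called (edgeR adjusted p = 0.484). The 1 cluster that mixed lymphatic and epithelial transcripts held 152 cells in all. It held 3 of the 644 Atf3-high cells (0.466%) and 1.78% of the other cells. The T and NK cell list was at 0 for 7 of its 8 genes in Atf3-high cells (summed level 0 to 3.89 CPM, against 1.21 to 3.74 CPM in other cells). The leukocyte list was at 0 for 3 of 6 genes, Ptprc among them (0 to 15.1 against 1.51 to 24.5 CPM), and the macrophage list for 7 of 11 (12.4 to 39.3 against 17.5 to 240.5 CPM). The B cell list was at 0 for 3 of 4 genes (0 to 1.56 against 0.432 to 18.1 CPM), the mesothelial list for 3 of 5 (0 to 0.777 against 0.603 to 1.85 CPM) and the fibroblast list for 1 of 7 (0 to 24.9 against 2.71 to 53.1 CPM). The neutrophil and monocyte list, at 0 for 3 of 8 genes (S100a9, Retnlg and Ccr2), was higher in Atf3-high cells at 3 days, at 342, 278, 271 and 143 CPM against 210.0, 231, 202 and 201. Nearly all of that sum was Plac8, which is also on the list of arterial EC markers. It stood at 338, 259, 260 and 143 CPM against 202, 221, 193 and 191. The mural list, at 0 for 1 of 9 genes (Cspg4), was also higher at d0, d15 and d22, at 46.6, 56.1, 60.7 and 17.6 CPM against 31.2, 26.1, 54.0 and 65.9. The part of such transcripts in the differences below was not tested.

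All other genes were compared over 8 sums, Atf3-high and other cells at each of 4 days, with edgeR's quasi-likelihood test and the day as a term. The p-value asks how regularly a difference recurred over the 4 pooled days. It does not measure the spread between animals, and choosing cells by 3 genes also chooses the genes whose levels follow them. Of 10849 genes tested, 51 were higher (0.47%) and 14 lower (0.129%) at an adjusted p under 0.05, 0.599% in either direction. The 51 were higher at all 4 days, by 1.36-fold to 5.62-fold, and in 46 of them the 4 sums of Atf3-high cells lay above all 4 of the other cells. Such separation occurred upward in 1.83% and downward in 3.79% of all genes tested, whose median log2 difference was -0.09. Against the other cells nearest in UMI total, 43 genes were higher, 37 of them among the 51, and 1 was lower. The count of higher genes was 31 without d0 and 28 without d22, the days with the most cells, and 80 with DESeq2.

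**Figure D1:**
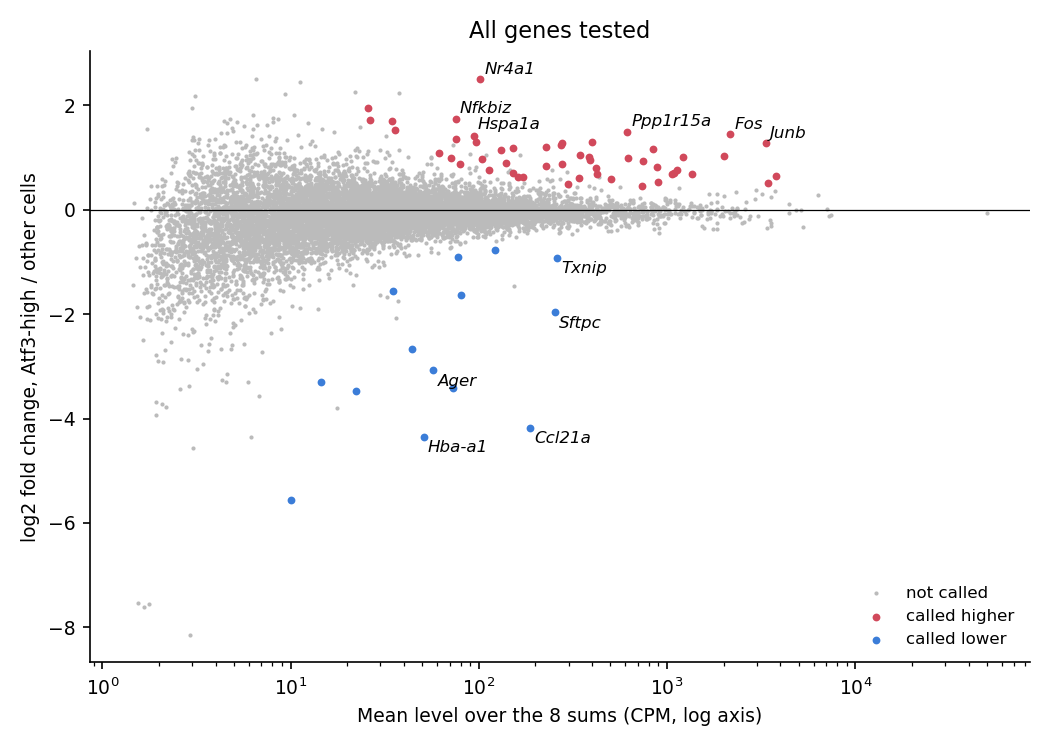
Each point is 1 of the 10849 genes tested. The x axis is the mean level over the 8 sums (CPM, log axis) and the y axis the log2 difference of Atf3-high from other cells. Red points are the 51 genes called higher, led by Nr4a1 at a log2 difference of 2.49, and blue points the 14 called lower. Of these 14, 7 belong to lists of other cell types, Hba-a1 among them, and Ccl21a is a marker of lymphatic EC.

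AP-1 subunits were among the most abundant genes that differed. Of 8 tested, 5 were higher (Fos, Fosb, Junb, Jund and Jun), none was lower, and the median log2 difference of the list was 1.13. Fos, the partner of the JUN proteins, stood at 2949, 3456, 3386 and 2925 CPM in the Atf3-high cells and 1088, 1414, 1103 and 1032 CPM in the other cells at d0, d15, d22 and d36. Every day's Atf3-high cells thus lay above every day's other cells (log2 difference 1.45 ± 0.09, SE over 8 sums, edgeR adjusted p = 1.05e-07). Its relative Fosb stood at 407, 451, 399 and 284 CPM in the Atf3-high cells and 173, 168, 163 and 139 CPM in the other cells, also without overlap (log2 1.24 ± 0.12, edgeR adjusted p = 7.97e-06).

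Among the JUN genes the difference was graded. Junb, the JUN gene furthest from its level in other cells, stood at 4457, 4719, 4764 and 4887 CPM in the Atf3-high cells and 1607, 2229.6, 1689 and 2334 CPM in the other cells (log2 1.27 ± 0.11, edgeR adjusted p = 2.12e-06). Jund stood at 1290.4, 1405, 1333 and 1332 CPM in the Atf3-high cells and 739, 935, 762 and 875 CPM in the other cells (log2 0.69 ± 0.10, edgeR adjusted p = 6.84e-04). Jun itself was abundant everywhere, at 3953, 3749.6, 4343 and 4069 CPM in the Atf3-high cells and 2512, 3084, 2684 and 3028 CPM in the other cells, and its log2 difference of 0.5 ± 0.10 was the smallest of the 5 (edgeR adjusted p = 0.0178). The 3 subunits that were not called were scarce. Fosl2 stood at 15.9, 24, 15 and 20.1 CPM against 7.14, 10.4, 5.19 and 10.5 and Maff, a small MAF partner protein, at 59.1, 42.7, 42.8 and 32.6 CPM against 22.5, 20.3, 17.4 and 29.3, both without overlap (edgeR adjusted p = 0.744 and 0.259), and Mafk overlapped. Jun lost its call among general capillary-like cells alone (log2 0.38, edgeR adjusted p = 0.127), and without d0 or without d22 (adjusted p = 0.287 and 0.26).

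**Figure D2:**
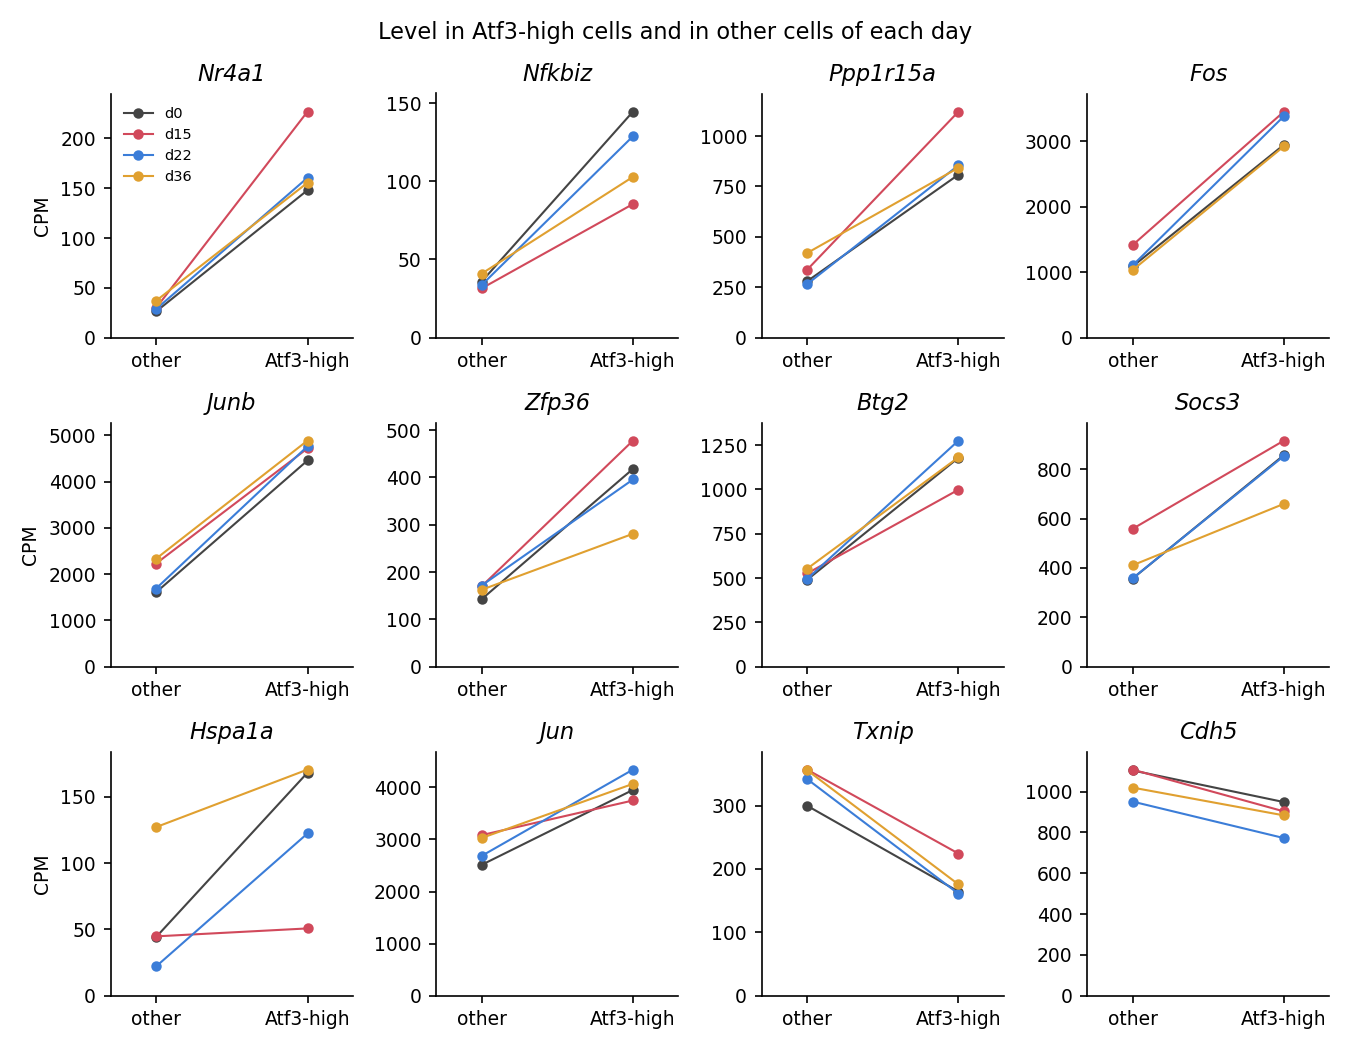
Level of 12 genes (CPM, linear axes from 0) in other cells and in Atf3-high cells, with 1 line for each day and each point the sum over that day's cells. Fos, Junb, Nr4a1 and Nfkbiz are higher in Atf3-high cells at all 4 days without overlap, Hspa1a is nearly level at d15, and Txnip and Cdh5 are lower.

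Outside AP-1, 13 of 33 early-response genes tested were higher and none lower, with a median log2 difference of 0.82. The called gene with the widest difference was Nr4a1, an orphan nuclear receptor, at 148, 227, 161 and 156 CPM in the Atf3-high cells and 26.3, 29.8, 28.7 and 37 CPM in the other cells. It was lowest in Atf3-high cells at d0 and highest at d15, and even the former lay above all 4 levels in other cells (log2 2.49 ± 0.17, edgeR adjusted p = 2.21e-07). Srf, the serum response factor that drives many early genes, was scarce at 36.1, 34.7, 25.7 and 67.7 CPM in the Atf3-high cells and 9.45, 11.9, 7.02 and 12.7 CPM in the other cells (log2 1.94 ± 0.36, edgeR adjusted p = 0.0121). It lost its call, though not the size of the difference, against other cells of like depth (log2 1.98, edgeR adjusted p = 0.055), without d0 (log2 1.94, 0.171) and without d22 (log2 1.95, 0.123), and in general capillary-like cells the difference was smaller (log2 1.025, 0.999). Rcan1, a calcineurin inhibitor outside that list, stood at 82.8, 72.1, 88.2 and 90.3 CPM in the Atf3-high cells and 42.7, 40.2, 37.5 and 36.4 CPM in the other cells, without overlap (log2 1.09 ± 0.20, edgeR adjusted p = 0.00957). Its call was lost against other cells of like depth (log2 0.85, edgeR adjusted p = 0.243), in general capillary-like cells (log2 1.10, 0.0883), without d0 (log2 1.12, 0.084) and without d22 (log2 1.00, 0.214).

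Among the genes called higher were several that code for inhibitors or feedback proteins, from different lists. Zfp36, whose protein destroys AU-rich transcripts, stood at 418, 478, 396 and 281 CPM in the Atf3-high cells and 142, 169.8, 171 and 163 CPM in the other cells (log2 1.27 ± 0.13, edgeR adjusted p = 3.59e-05). The antiproliferative gene Btg2 stood at 1179, 999, 1276 and 1182 CPM in the Atf3-high cells and 489.8, 526, 495 and 552 CPM in the other cells (log2 1.16 ± 0.11). Dusp1, a phosphatase that inactivates MAP kinases, stood at 1603, 1679.8, 1515 and 1852 CPM in the Atf3-high cells and 768, 1312, 817 and 1340.3 CPM in the other cells, a smaller difference that was narrowest at d15 (log2 0.69 ± 0.12, edgeR adjusted p = 0.00772). Socs3, the inhibitor of cytokine receptor signalling, stood at 857, 916, 854 and 659.8 CPM in the Atf3-high cells and 357, 558, 358 and 411 CPM in the other cells (log2 0.98 ± 0.13, edgeR adjusted p = 3.18e-04). Cdkn1a, the p21 inhibitor of the cell cycle, stood at 904, 900.0, 707 and 1365 CPM in the Atf3-high cells and 442, 601, 340.0 and 668 CPM in the other cells (log2 0.92 ± 0.11). Socs3 was 1 of 3 called higher among 13 genes of the STAT3 list, with Junb and Stat3, and Cdkn1a 1 of 2 among 12 glucocorticoid-induced genes, with Dusp1. Dusp1 lost its call without d0 (log2 0.55, edgeR adjusted p = 0.0735) or without d22 (log2 0.60, 0.058).

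Sequences before the start of 4 of the higher genes and of Atf3 itself were chosen to show the element TGACGTCA, which the ATF3 protein binds, or its half-site, and all 5 hold one. Other higher genes, such as Zfp36 and Sertad1, hold neither. The sequences shown are the 250 bases upstream of each start in RefSeq on GRCm38.p6 (mm10), written 5′ to 3′ along the gene, with capitals marking each TGACG or its reverse complement CGTCA.
Atf3 (chr1:191183334-191183583, minus strand): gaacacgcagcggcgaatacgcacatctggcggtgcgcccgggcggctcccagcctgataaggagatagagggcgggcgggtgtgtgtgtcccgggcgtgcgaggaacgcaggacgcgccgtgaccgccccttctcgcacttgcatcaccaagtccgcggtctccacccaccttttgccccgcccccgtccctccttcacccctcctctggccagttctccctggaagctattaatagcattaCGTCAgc
Fos (chr12:85473640-85473889, plus strand): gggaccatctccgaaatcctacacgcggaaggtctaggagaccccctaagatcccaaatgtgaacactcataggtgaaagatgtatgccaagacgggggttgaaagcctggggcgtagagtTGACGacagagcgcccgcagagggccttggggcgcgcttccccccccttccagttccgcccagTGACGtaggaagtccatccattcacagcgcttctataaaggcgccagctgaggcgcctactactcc
Nr4a1 (chr15:101266596-101266845, plus strand): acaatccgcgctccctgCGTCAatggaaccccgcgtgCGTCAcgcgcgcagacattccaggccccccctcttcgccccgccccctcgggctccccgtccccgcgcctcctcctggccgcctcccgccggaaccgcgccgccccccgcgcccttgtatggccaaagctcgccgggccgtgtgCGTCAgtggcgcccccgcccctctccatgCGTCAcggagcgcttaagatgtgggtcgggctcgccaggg
Ppp1r15a (chr7:45526269-45526518, minus strand): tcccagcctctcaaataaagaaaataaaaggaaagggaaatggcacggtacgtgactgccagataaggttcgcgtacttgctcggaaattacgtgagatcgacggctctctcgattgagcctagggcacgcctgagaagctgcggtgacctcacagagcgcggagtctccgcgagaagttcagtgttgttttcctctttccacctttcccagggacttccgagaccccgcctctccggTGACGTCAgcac
Btg2 (chr1:134079156-134079405, minus strand): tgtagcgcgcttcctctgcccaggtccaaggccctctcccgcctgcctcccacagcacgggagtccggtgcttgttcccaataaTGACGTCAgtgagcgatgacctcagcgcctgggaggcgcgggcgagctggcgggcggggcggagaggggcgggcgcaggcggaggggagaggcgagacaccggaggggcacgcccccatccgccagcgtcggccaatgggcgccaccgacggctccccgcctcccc
Ppp1r15a and Btg2 hold the whole element TGACGTCA, in which the forward and reverse half-sites overlap, while the other 3 hold half-sites only. The RefSeq table matched 42 of the 51 higher genes, and Nfkbiz had no entry. A gene counted when the 250 bases before any of its starts held the site. TGACGTCA, which is its own reverse complement, was present in 7 of the 42 (16.7%: Ppp1r15a, Wsb1, Btg2, Rcan1, Ccnl1, Plk2 and Dusp1), in 3.30% of the 8238 matched genes among those tested and in 1.77% of all 27025 genes. The half-site TGACG on either strand, which the whole element contains, was in 21 of the 42, 31.8% of tested genes and 19.8% of all genes. The AP-1 site TGACTCA on either strand was in 7.14%, 3.71% and 5.16%, and the EGR site GCGGGGGCG on either strand in 14.3%, 5.78% and 2.93%. Of the other sites searched, the CArG box (CC, 6 bases of A or T, GG) was in 4.76%, 1.38% and 1.62%. An NF-kB site was in 14.3%, 10.6% and 8.23%. No binding was measured, and a match is a description of the letters.

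Of 20 NF-kB and feedback genes, 2 were higher and none lower, with a median log2 difference of 0.29. Nfkbiz, which codes for the nuclear protein IkB-zeta and is a marker of the state, stood at 145, 85.5, 129 and 103 CPM in the Atf3-high cells and 35.8, 31.5, 33.6 and 40.9 CPM in the other cells. Its 4 levels in Atf3-high cells all lay above those in other cells (log2 1.73 ± 0.20, edgeR adjusted p = 8.72e-05). Nfkbia, the inhibitor IkB-alpha, stood at 1074, 1124, 947 and 1066 CPM in the Atf3-high cells and 682, 732, 665 and 851 CPM in the other cells (log2 0.52 ± 0.10, edgeR adjusted p = 0.013). The NF-kB subunits overlapped between groups, with log2 differences of -0.14 for Nfkb1, -0.18 for Rela, 0.47 for Relb and 0.63 for Rel. Tnfaip3, the A20 feedback enzyme, was at 6.61, 0, 4.64 and 7.53 CPM against 5.18, 2.56, 4.96 and 5.40. Nfkbia lost its call against other cells of like depth (log2 0.47, edgeR adjusted p = 0.0891), in general capillary-like cells (log2 0.43, 0.0763), without d0 (log2 0.46, 0.26) and without d22 (log2 0.50, 0.123).

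No cytokine or adhesion gene tested was called. Only some of those tested are targets of NF-kB, and several classical targets were too scarce to test. None of 10 cytokine and chemokine genes tested was higher or lower (median log2 difference 0.00), and 15 more, among them Il6, Ccl2 and Cxcl2, were too scarce to test. Hbegf, a growth factor of the EGF family, stood at 101, 21.4, 118 and 105 CPM in the Atf3-high cells and 48, 67.7, 53.3 and 61.9 CPM in the other cells, higher at 3 days and lower at d15. Its level in Atf3-high cells of d15 rested on 8 UMIs. Without d15 it was called higher (log2 1.04, edgeR adjusted p = 0.00736, against 0.879 with all days). Cxcl12, a chemokine of vessel walls, stood at 397, 302, 433 and 522 CPM against 288, 395, 380.4 and 393. None of 9 leukocyte adhesion genes was called. Vcam1, a ligand for leukocyte integrins, stood at 260.4, 152, 142 and 42.7 CPM in the Atf3-high cells and 87.2, 57.3, 71 and 58.8 CPM in the other cells, higher at 3 days and lower at d36 (log2 1.04 ± 0.23, edgeR adjusted p = 0.05, just above the threshold, and 0.000879 without d36), and in general capillary-like cells its difference turned negative (log2 -0.73, edgeR adjusted p = 0.999).

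Few protein-folding genes differed. Of 19 cytosolic heat shock genes 2 were higher, with a median log2 difference of 0.16 over the list, whose summed level was 4938 to 6211 CPM in Atf3-high cells and 4122 to 5328 CPM in the others. Dnajb1, an HSP40 co-chaperone, stood at 197, 192, 231 and 221 CPM in the Atf3-high cells and 89.6, 99.4, 74.4 and 115 CPM in the other cells, without overlap (log2 1.18 ± 0.15, edgeR adjusted p = 3.18e-04). Hspa1a, the inducible HSP70, stood at 168, 50.7, 122 and 171 CPM in the Atf3-high cells and 44.2, 44.7, 22 and 127 CPM in the other cells (log2 1.42 ± 0.30, edgeR adjusted p = 0.0369). At d15 its groups were nearly level, and at d36 the other cells were high as well. Reads of its near-identical neighbour Hspa1b may be split between the 2 genes, which makes this value uncertain. The call was lost without d0 (edgeR adjusted p = 0.152), without d22 (0.338) and with no day term (0.745). It was also lost in endothelial clusters alone (log2 1.36, edgeR adjusted p = 0.128), against other cells of like depth (log2 1.70, 0.0622) and with the rule at 2 per 10000 (log2 1.42, 0.0601). The other 17 heat shock genes, Hsp90aa1, Hsp90ab1, Hspa8, Hsph1, Hspb1 and Bag3 among them, had log2 differences from -0.30 (Dnaja4) to 1.33 (Hspa1b, at most 10.7 CPM).

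Of 21 genes of the endoplasmic reticulum and ATF4 stress response, 2 were higher and none lower (median log2 difference 0.10). Ppp1r15a, or GADD34, which restores translation after stress, stood at 809, 1122, 855 and 843 CPM in the Atf3-high cells and 279.6, 336, 265 and 419.7 CPM in the other cells (log2 1.49 ± 0.12, edgeR adjusted p = 2.12e-06). Hspa5, the chaperone BiP, differed less, at 928, 961, 852 and 677 CPM in the Atf3-high cells and 670.2, 612, 637 and 553 CPM in the other cells (log2 0.45 ± 0.10, edgeR adjusted p = 0.0415), and lost its call against other cells of like depth (log2 0.38, edgeR adjusted p = 0.271) and without d0 (log2 0.43, 0.438), d15 (log2 0.41, 0.0884) or d22 (log2 0.44, 0.326). Ddit4, an inhibitor of mTOR, stood at 49.4, 77.4, 66.7 and 100.4 CPM in the Atf3-high cells and 39.1, 41.7, 31.8 and 40.3 CPM in the other cells and was not called (edgeR adjusted p = 0.126).

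Genes with a reported response to tissue dissociation were among those called. Of 47 genes reported to be induced by dissociation 23 were higher, none was lower, and 41 had a positive difference (median log2 difference 0.68). Over all 10849 genes tested, 51 were higher and 4186 had a positive difference. The dissociation list shares 29 of its genes with the AP-1, early-response and heat shock lists above, so it is not separate from them. Its summed level was 43871 to 46443 CPM in Atf3-high cells and 25649 to 32016 CPM in the other cells of the 4 days, and no gene of it was at 0 in either group. All cells were dissociated and sorted, and the part of handling in the state was not tested. Mitochondrial transcripts, a sign of damaged cells, were 1.49% of UMIs in the median Atf3-high cell and 1.93% in the median other cell, and all 13 had negative differences, none called. By day the medians were 1.41% against 1.95% (d0), 1.72% against 1.99% (d15), 1.485% against 1.64% (d22) and 1.765% against 3.01% (d36). These shares were not matched for depth.

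Of 11 genes tested in the list of KLF factors and their targets, 2 were higher and none lower. Klf6 stood at 502, 411, 555 and 575 CPM in the Atf3-high cells and 234, 285, 226 and 281 CPM in the other cells (log2 1.00 ± 0.13, edgeR adjusted p = 3.18e-04), and Klf4, which blood flow induces, at 1328, 1255, 1166 and 1458 CPM in the Atf3-high cells and 673, 1000.4, 624 and 1007 CPM in the other cells (log2 0.68 ± 0.12, edgeR adjusted p = 0.0068). Klf2, the main flow-responsive factor of EC, overlapped between groups at 3577, 4407, 3173 and 5592 CPM in the Atf3-high cells and 2483, 3993, 2399 and 4327 CPM in the other cells and was not called (edgeR adjusted p = 0.174). It was named after its values were seen. Klf4 lost its call without d0 (edgeR adjusted p = 0.0621) and without d22 (0.0604).

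Regulators of transcription and splicing formed a further group, with 4 of 18 tested higher and none lower (median log2 difference 0.19). Ccnl1, a cyclin of the splicing machinery, stood at 551, 379, 562 and 369 CPM in the Atf3-high cells and 226, 228, 225 and 222 CPM in the other cells (log2 1.04 ± 0.13, edgeR adjusted p = 3.18e-04). Hexim1, which holds the elongation factor P-TEFb inactive, stood at 144, 96.1, 133 and 176 CPM in the Atf3-high cells and 61.8, 84.4, 68.1 and 68.7 CPM in the other cells (log2 0.97 ± 0.18, edgeR adjusted p = 0.0137). The helicase gene Ddx3x stood at 169.9, 211, 198 and 253 CPM in the Atf3-high cells and 122, 153, 129 and 129.5 CPM in the other cells (log2 0.62 ± 0.13, edgeR adjusted p = 0.0363). Hexim1 lost its call without d0, d22 or d36 (adjusted p = 0.145, 0.11 and 0.0857) and Ddx3x without the same days (0.146, 0.332 and 0.127). The histone demethylase Kdm6b stood at 146, 176, 149 and 246 CPM in the Atf3-high cells and 70.6, 109, 51.3 and 104 CPM in the other cells (log2 1.14 ± 0.16, edgeR adjusted p = 7.45e-04).

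Other higher genes by size were Sertad1, a regulator of cell cycle transcription (494, 481, 646 and 642 CPM against 174, 277, 222 and 257), Marcksl1, an actin-binding protein (141, 66.8, 173 and 168 against 61.2, 48.7, 53.2 and 57), and Wsb1, a ubiquitin ligase subunit (288, 307, 322 and 354 against 126, 159, 123 and 148). All 3 were separated without overlap, with log2 differences of 1.3 ± 0.13, 1.3 ± 0.19 and 1.2 ± 0.12 (edgeR adjusted p = 2.76e-05, 0.0014 and 3.27e-05). Of 25 interferon-response genes 1 was called, the GTPase gene Iigp1, at 543, 389.9, 605 and 514 CPM in the Atf3-high cells and 266, 215, 289 and 285 CPM in the other cells (log2 0.95 ± 0.11, edgeR adjusted p = 9.02e-05). Plat, or tissue plasminogen activator, was the 1 called gene of 11 in coagulation, at 145, 326, 126 and 166 CPM against 84.8, 154, 83.5 and 132, with overlap (log2 0.69 ± 0.14, edgeR adjusted p = 0.0281). It lost the call without d0, d15 or d22 (adjusted p = 0.25, 0.116 and 0.147) and in general capillary-like cells (0.999).

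The genes lower in Atf3-high cells were few. Txnip, an inhibitor of thioredoxin, stood at 164, 224, 161 and 176 CPM in the Atf3-high cells and 299.9, 357, 342 and 356 CPM in the other cells, lower at each day without overlap (log2 -0.92 ± 0.12, edgeR adjusted p = 2.82e-04). Hist4h4, a histone H4 gene, stood at 28.8, 21.4, 46.8 and 62.7 CPM in the Atf3-high cells and 109, 139, 146 and 86.1 CPM in the other cells (log2 -1.63 ± 0.24, edgeR adjusted p = 0.00122). Zcchc17 and Git2 had log2 differences of -0.91 ± 0.19 and -0.77 ± 0.16 (edgeR adjusted p = 0.0262 and 0.0256). Both lost their calls against other cells of like depth (log2 -0.81 and -0.54, edgeR adjusted p = 0.246 and 0.565). Git2 lost it without d0, d15 or d36 (0.311, 0.0657 and 0.0589), and Zcchc17 without any 1 of the 4 days (0.0535 to 0.108). Hist4h4 lost its call against cells of like depth (log2 -1.36, edgeR adjusted p = 0.283).

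Of the 14 lower genes, 7 belonged to lists of other cell types. Ager of alveolar epithelium stood at 8.16, 0, 14.6 and 10.0 CPM in the Atf3-high cells and 63, 238, 88.5 and 37 CPM in the other cells, and Sftpc, a surfactant protein, at 47.8, 16, 75.3 and 113 CPM in the Atf3-high cells and 56.5, 239.9, 259 and 1223 CPM in the other cells. The summed epithelial list was 133 to 183 CPM in Atf3-high cells and 225 to 1664 CPM in the others, and the erythroid and platelet list 18.7 to 37.6 against 108 to 873 CPM. Ccl21a, a chemokine of lymphatic EC and not 1 of those 7 genes, stood at 25.3, 21.4, 19.6 and 5.02 CPM in the Atf3-high cells and 518, 553, 288 and 73.6 CPM in the other cells. When the mixed cluster was left out, the log2 difference of Ager turned to 0.38, that of Sftpc shrank to -0.28 and that of Ccl21a to -0.76, and none was called (edgeR adjusted p = 0.997, 0.996 and 0.989). Over all clusters Sftpc also lost its call without d15 (edgeR adjusted p = 0.0522) and without d36 (0.168).

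Lists of EC function showed no called gene. This held for BMP signalling (17 tested), Notch (11), MHC class I (9) and II (7), junctions (15), angiogenesis (17), lipid handling (13), matrix (17) and 82 ribosomal protein genes, whose median log2 difference was 0.02. Kdr, the receptor VEGFR2, stood at 309, 246, 274 and 221 CPM in the Atf3-high cells and 388, 336, 404 and 317 CPM in the other cells, lower without overlap at a log2 difference of -0.47 ± 0.11 (edgeR adjusted p = 0.0789, and 0.014 with DESeq2). Id3, a target of BMP signalling, stood at 1379, 1979, 1329.8 and 1490.3 CPM against 1755, 2066, 1963 and 2099.8 (log2 -0.38 ± 0.09, edgeR adjusted p = 0.113, and 0.0271 without d15). All 12 aerocyte markers had negative differences (median log2 difference -0.34), and of 12 venous markers 10 had positive ones (0.41), none called. Over all 10849 genes tested, 4186 had positive differences.

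The state graded into the other cells. At d0, Fos summed to 709.8 CPM in 1245 cells with none of the 3 genes, 1332 in 967 cells with Egr1 or Csrnp1 but no Atf3, and 1634 in 104 cells with Atf3 under the threshold. Within the Atf3-high cells of that day it stood at 2283 CPM where Atf3 was 3 to 5 per 10000 (87 cells), 3207 at 5 to 10 (99 cells) and 3667 at 10 or more (55 cells). At d22 the same 6 groups stood at 691, 1387, 2128, 2693, 3219.5 and 4290.3 CPM. Klf6 stood at 205, 236, 271, 359, 509 and 755 CPM over these groups at d0, with most of its difference inside the rule. These values describe cells ordered by the genes of the rule, and the groups differed in depth. From first to last, their median UMIs were 6238, 8666, 13656.5, 10327, 9234 and 8496 at d0. At d22 they were 6713, 8318.5, 10813, 11252, 8066 and 7957. The part of depth in this order was not tested. Over all days, just inside the threshold, 94 cells with Atf3 at 3 to 4 per 10000 had 2241 CPM of Fos, 3569.6 of Junb and 107 of Nfkbiz, and just outside it 86 cells at 2 to 3 per 10000 had 2054, 3110.0 and 63.5 CPM. Another 263 cells had Atf3 at 3 or more without Egr1 or Csrnp1, with Fos at 1613 CPM and Nr4a1 at 44.8 CPM, against 159 CPM of Nr4a1 in the Atf3-high cells. The median depth of these 263 cells was 6011 UMIs, against 8644 in the Atf3-high cells.

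**Figure D3:**
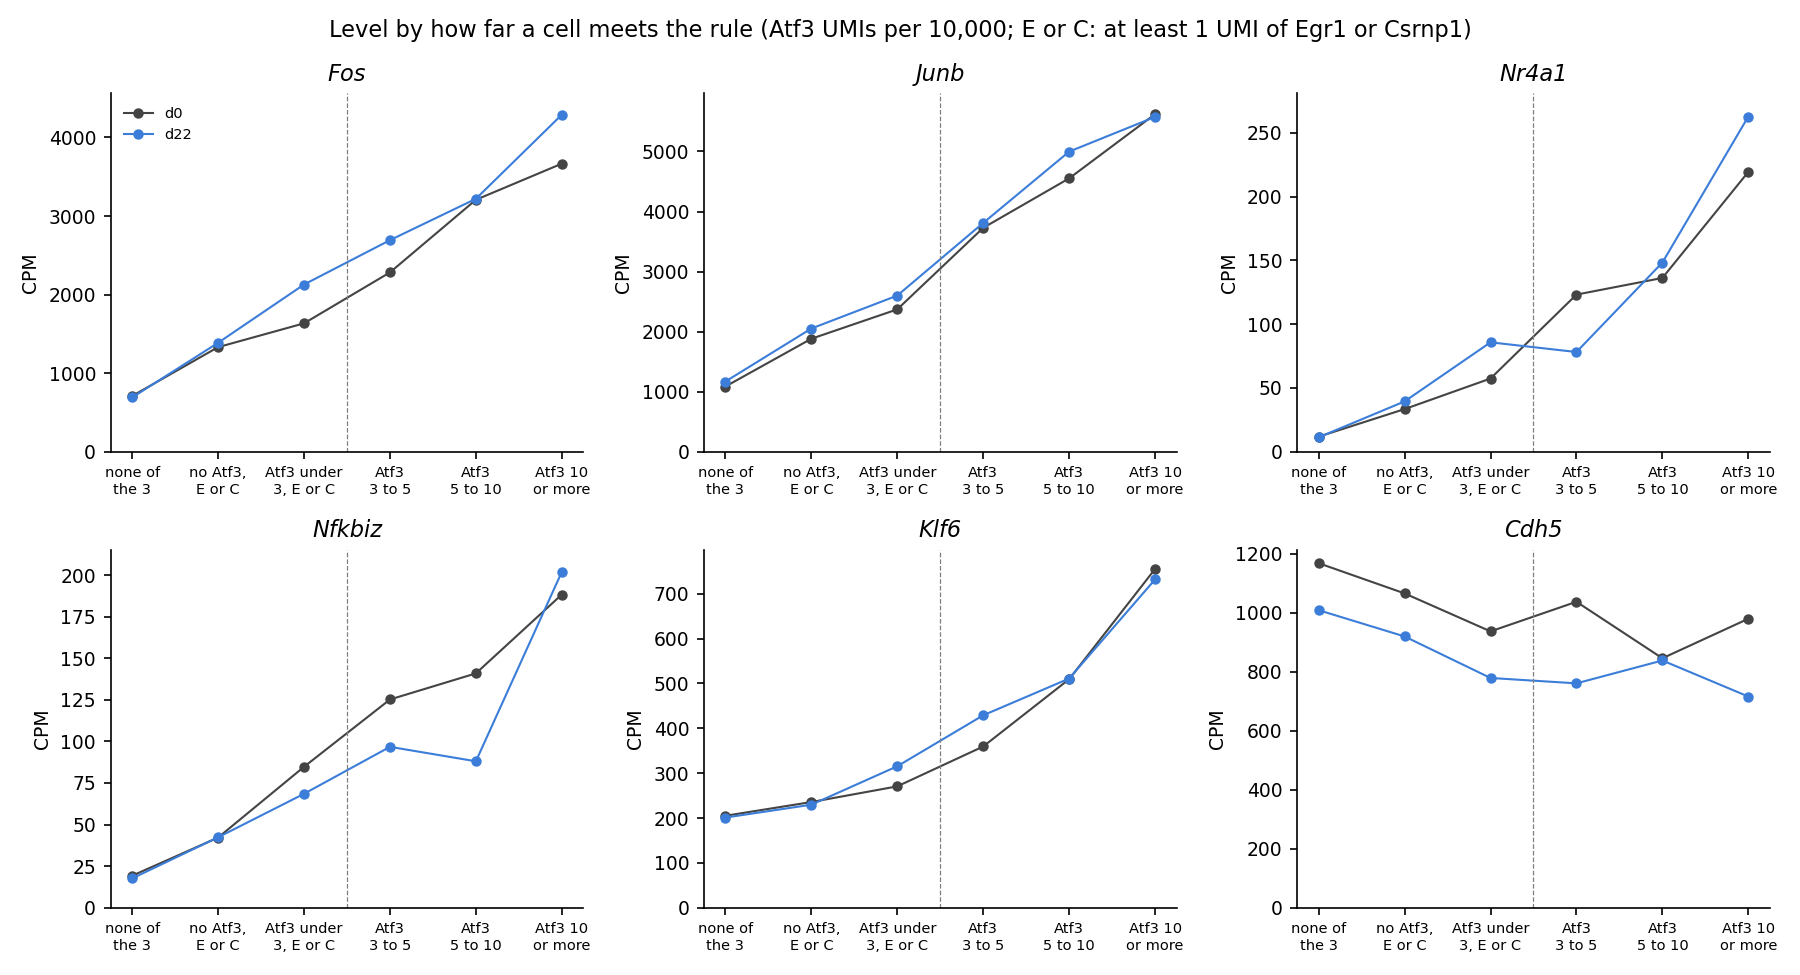
Level (CPM, linear axes from 0) of 6 genes at d0 and d22 in cells ordered by how far they met the rule. The dashed line is the threshold, with Atf3-high cells to its right. Fos and Junb are higher with each group from left to right at both days, and Nr4a1 and Nfkbiz have 1 step down at d22 each. Cdh5 has its highest level in the leftmost group at both days, with steps both down and up to the right of it. Groups at d15 and d36 held as few as 12 cells and are not drawn.

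Atf3-high cells were a larger share of cells at d0 and d22 than at d15 and d36. On d0 they made up 9.02% (Clopper-Pearson 95% interval 7.96 to 10.2) and on d22 8.79% (7.84 to 9.82). On d15 the share was 3.52% (2.65 to 4.58) and on d36 it was 4.05% (3.15 to 5.13). Each day was 1 pooled sample, so the difference has no replicate check and the intervals cover counting error only. No cell type in the table is known to lack Atf3, so a background share from free RNA was not measured. The shares moved with depth, and the 2 days with fewer UMIs per cell had the lower shares. Thinning every cell to 2500 UMIs dropped the shallower cells (460 of d15 and 604 of d36), and the shares were then 7.25%, 3.81%, 7.61% and 4.67%. At that depth 1 UMI of Atf3 met the rule, so the cut is not the same as in whole cells.

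Within bands of UMI totals the days lay closer together in some bands and not in others. In cells of 2600 to 4000 UMIs the shares were 1.47%, 1.57%, 2.51% and 2.33% at d0, d15, d22 and d36, and in cells of 8000 to 12000 UMIs they were 14.3%, 12.4%, 12.8% and 12.7%. In cells of 4000 to 6000 UMIs they were 2.60%, 3.31%, 4.64% and 4.31%, and in those of 6000 to 8000 UMIs 9.80%, 5.67%, 9.05% and 7.98%. Above 12000 UMIs they were 12.5%, 7.14%, 10.4% and 3.03%, but only 42 cells of d15 and 33 of d36 were that deep, with 3 and 1 Atf3-high cells. The intervals of all 4 days overlapped in each of the 5 bands. Weighted to the same bands, over cells of at least 2600 UMIs, the shares were 8.31%, 6.28%, 8.08% and 6.61%. At d0 the bands differed also at equal counting, since thinning to 2500 UMIs left 1.70% in the lowest band and 10.1% in that of 8000 to 12000 UMIs. The part of depth in the difference between days was not tested beyond these values.

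**Figure D4:**
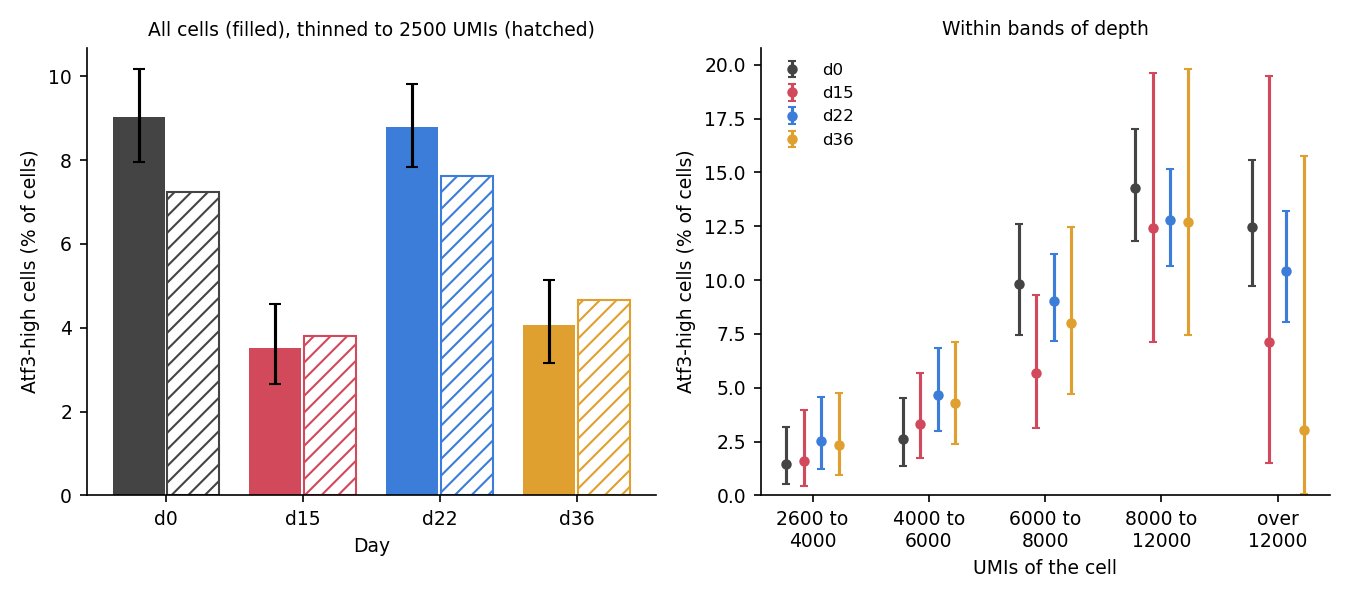
Share of Atf3-high cells (percent of cells) by day on the left, as counted (filled bars) and thinned to 2500 UMIs (hatched), and by band of UMI totals on the right, with Clopper-Pearson 95% intervals on the counted shares. The share as counted is 9.02% at d0 and 3.52% at d15, and within a band the intervals of the days overlap.

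The state was present in each kind of EC. Clusters were made without the early-response genes and named from marker genes. As a mean of the 4 days, Atf3-high cells were 11.9% of arterial-like cells, 9.59% of venous-like cells, 6.81% of general capillary-like cells and 5.06% of aerocyte-like cells, the wide capillary cells of gas exchange. A cluster led by Hmgb2 and Stmn1, left without a name, had 7.04%. The lowest of these shares was 1.29%, in cells poor in the nuclear RNA Malat1, whose median depth was 3078 UMIs. With every cell thinned to 2500 UMIs the mean shares were 10.6% in arterial-like, 8.05% in venous-like, 6.08% in general capillary-like and 4.52% in aerocyte-like cells. The mixed cluster had a mean share of 2.06% as counted and 5.49% thinned. Median depths of aerocyte-like cells were 13214, 5479, 13597 and 3147.5 UMIs at the 4 days, and those of arterial-like cells 7906, 5132, 7822 and 4405.5.

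That order was not the same at each day. Arterial-like cells had shares of 19.5%, 12.1%, 12.2% and 3.85% at d0, d15, d22 and d36, and aerocyte-like cells 7.16%, 3.23%, 4.56% and 5.28%. At d36 only 2 of 52 arterial-like cells were Atf3-high, and the intervals of both classes overlapped (0.469 to 13.2 and 2.84 to 8.87). Among general capillary-like cells the shares were 9.96%, 2.38%, 10.3% and 4.55%, and 396 of the 644 Atf3-high cells (61.5%) were of this class, against 57.8% of the other cells. Within that class, 1 cluster of 1372 shallow cells (median 2632.5 UMIs) had 0.897%, 1.43%, 0.93% and 2.92% over the days. Its name is uncertain, since its leading genes were Hmcn1, Sema3c and several mitochondrial transcripts. Against the rest of the cells its erythroid and platelet markers had a mean log2 difference of 2.13, and its general capillary markers 0.654. Its cells are part of the general capillary-like class wherever that class is used. The cluster led by the MHC class II genes Cd74, H2-Eb1 and H2-Aa had 12.2%, 8.99%, 11.7% and 8.25%, and that led by Hey1 and Plvap 13.5%, 1.82%, 12.6% and 3.66%.

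**Figure D5:**
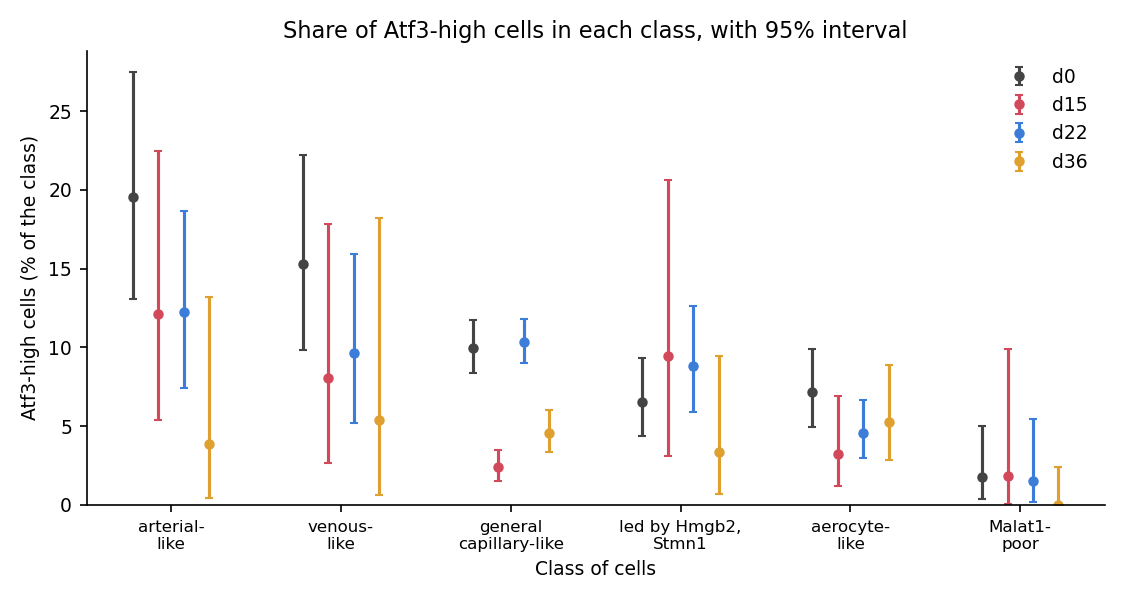
Share of Atf3-high cells (percent) in each kind of EC at each day, with Clopper-Pearson 95% intervals. Arterial-like cells reach 19.5% at d0 and stand at 3.85% at d36. The mixed cluster and a cluster of 42 cells led by Fabp4 are not drawn.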

How the data were processed

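The deposited table holds counts of UMIs per gene and cell, which the authors made and left unscaled. Cell Ranger 2.1.1 and mm10 are named in the submitters' processing notes. The annotation release, and whether cells were filtered, is not given in the sources used here. The members, gene lists and marker lists were chosen with earlier results of these data known. No cell was removed and no doublet caller was run, so doublets remain. Leaving out the 2% of cells with the most UMIs was 1 alternative. The table has 28692 gene symbols, of which 10850 had no UMI, and no gene coordinates.

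UMIs were summed per day over Atf3-high and over other cells, without Atf3, Egr1 and Csrnp1, and tested with edgeR 4.0.16 (R 4.3.3, TMM scaling, filterByExpr with a minimum count of 10, glmQLFit with day and group, Benjamini-Hochberg adjustment, threshold 0.05). SEs are the absolute log2 difference over the root of F. The method was tested on simulated data. Days are different conditions, so p-values measure only the spread of the difference over 4 pooled samples. Clusters came from scanpy 1.11.5 (2000 variable genes, of which 1968 remained without state genes, 30 components, 15 neighbours, Leiden resolution 1.0). Clusters with Malat1 under 25% of the median cluster's level were set apart, and a leading gene had to be in at least 25% of cells. Thinned shares are expected values from the hypergeometric distribution.

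Named genes were the 15 highest and 10 lowest called genes in the same direction at 4 days with a mean of at least 50 CPM, Nfkbiz, from each list the 3 genes of largest difference at 20 CPM or more, and any AP-1, NF-kB or heat shock gene. Plk2, Pecam1 and Klf2 fell outside it and were named after their values were seen. Alternatives changed the cells compared, the rule, the scaling, the filter, the day term and the tool (DESeq2 1.42.0), and left out each day.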

Additional observations from a re-analysis of the deposited data

Results flagged for a closer look

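Mgp, a matrix protein of arterial EC, differed between Atf3-high and other cells in opposite directions at different days. Its level in Atf3-high cells was 2.17 times that in other cells at d0 and 4.78 times at d15, but 0.37 times at d36. The difference between days was not tested. The UMIs lay in few cells, 38 of 241 Atf3-high cells at d0, 7 of 53 at d15 and 4 of 66 at d36, and arterial-like cells among all Atf3-high cells of these days numbered 25, 8 and 2. Without arterial-like cells, Mgp stood at 169 CPM in Atf3-high and 138 CPM in other cells at d0, 15.6 and 86.6 at d15 and 7.68 and 131 at d36.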

How the results depend on the processing

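The 51 genes higher and 14 lower were recomputed under 18 alternatives. The higher genes numbered 42 to 66 where cells, rule or scaling were changed, all within 1.5 times of 51. They were 88 with no filter on low counts and 80 with DESeq2, both of which held all 51, 31 with no day term, and 28 to 65 when 1 day was left out. The lower genes were 7 in endothelial clusters only, 9 in general capillary-like clusters, 1 against other cells nearest in UMI total, 7 with the rule at 2 UMIs of Atf3 per 10000, 54 with no filter and 8 with no day term, and 11 to 15 when 1 day was left out. Against cells of like depth fewer cells were compared (2 per Atf3-high cell), and 43 genes were higher. The log2 differences of lower genes moved as well. That of Ccl21a went from -4.18 to -1.61, that of Git2 from -0.77 to -0.54 and that of Hbb-bs from -3.42 to 0.89, while Txnip kept its call. The cause of the smaller number of lower genes was not tested. Of 41 named called genes, 18 kept their call under all alternatives, among them Fos, Fosb, Junb, Jund, Nr4a1, Nfkbiz, Ppp1r15a, Btg2, Zfp36, Socs3, Klf6 and Txnip. Over their 736 values, 620 kept direction and call, 110 lost the call and 6 changed sign. The sign changes were those of Ager (0.38 in endothelial and 0.37 in general capillary-like clusters), Hba-a1 (1.18 with the rule at 2 per 10000) and Hbb-bs (0.89 against cells of like depth, 1.46 with the rule at 2 per 10000 and 0.26 without clusters of low UMI counts), and the cause was not tested.

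Shares at d0 and d22 were 10.2% at both days with the rule at 2 UMIs per 10000, 5.77% and 6.07% at 5, 7.25% and 7.61% thinned to 2500 UMIs and 4.69% and 5.20% thinned to 1500. In general capillary-like cells the share was 10.3% at d22 and 2.38% at d15. At d15 and d36 shares were 2.18% and 2.76% thinned to 1500 UMIs, 5.52% and 6.62% thinned to 5000, and 6.28% and 6.61% weighted to the same bands of UMI totals. The weighting and the setting without clusters of low UMI counts were chosen after seeing the data. The share at d15 and d36 was below that at d0 and d22 under each of these settings. For libraries, no paired analysis was possible because cell names carry no library number, so libraries cannot be matched over days. The labels also do not say that libraries of the same number at different days form pairs. The gene test did pair the sums of Atf3-high and other cells within each day, through its day term. Depth limits d15 and d36, where the Atf3-high cells held the fewest UMIs.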

Other observations

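Some vein and capillary genes had higher levels in Atf3-high cells at 1 to 3 days that rested on few cells, and none was called. Ackr1, the chemokine receptor of venules, stood at 12.8, 224 and 31.1 CPM at d0, d15 and d22 against 4.27, 2.71 and 6.86 CPM in other cells, with its UMIs in 2 cells at each of these days, and 80 of the 84 UMIs of d15 came from 1 cell. It had no UMI in the Atf3-high cells of d36 (edgeR adjusted p = 0.633). Selp, the P-selectin of activated endothelium, stood at 34.6, 96.1 and 22.5 CPM at d0, d15 and d22 against 7.0, 4.37 and 7.02 CPM, in 10, 6 and 8 cells, and had no UMI in the 66 Atf3-high cells of d36 (edgeR adjusted p = 0.24). Fabp4, a fatty acid binding protein, stood at 836 CPM at d15 against 159 CPM, with 69.0% of its UMIs in 1 cell. Hspa1a was carried by more cells, 68 of 241 at d0 and 52 of 284 at d22, but by 5 of 53 at d15 and 12 of 66 at d36.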
